A study of Mus musculus with 26 samples.

Results

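The 83 protein-coding genes described here carry the nuclear-encoded subunits of the mitochondrial respiratory chain and ATP synthase. They were taken by gene name from the 25814 genes of each library's table, with the muscle isoform Cox6a2 left out. Complex I, NADH dehydrogenase, has 37 of them, complex II, succinate dehydrogenase, has 4, complex III, the cytochrome bc1 complex, has 9, complex IV, cytochrome c oxidase, has 17, and ATP synthase has 16. Messenger RNA was sequenced from T cells sorted by flow cytometry from Peyer's patches, the lymphoid follicles of the small intestine, of C57Bl/6 mice. CD44+ (n = 7) and CD44- (n = 7) T cells came from mice on the conventional diet, CD44 being a hyaluronan receptor whose surface level climbs on T cells that have met antigen. CD4+ T cells came from mice on an elemental diet (n = 6), in which amino acids stand in for whole protein, or on the conventional diet (n = 6). The labels give no genotype beyond the strain and no age, and leave unsaid if CD4 gated the CD44 sorts too and if the libraries of a group came from separate animals. The p-values thus rest on library-to-library spread, part of which may be technical.

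Complexes I and II feed electrons from NADH and succinate into ubiquinone. Complex III passes them to cytochrome c and complex IV to oxygen, and ATP synthase uses the proton gradient that results. Most subunits are nuclear genes whose products are imported into mitochondria, and a few subunits of every complex but complex II are encoded by mitochondrial DNA. T cells raise mitochondrial mass and respiration when antigen activates them, and memory T cells are known for high respiratory capacity. Transcription of these genes is known to draw on NRF1, on ETS-family factors such as GABP, on YY1 and on coactivators of the PGC-1 family.

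Both kinds of library stood apart in preparation. CD4+ libraries were made from 22 ng of RNA with a standard poly(A) kit, and CD44 libraries from 1 ng with a low-input kit, so population, input and kit cannot be told apart, and tests stayed within each pair of groups. Exon reads ran from 7180390 to 13378353 in CD44 libraries and from 16401589 to 25415205 in CD4+ libraries. Introns took 9.39% to 29.0% of gene reads in CD44 libraries and 3.33% to 4.61% in CD4+ libraries. Levels are given as CPM, exon reads scaled to the library size after TMM, edgeR's factor for composition. Of 8 markers of alpha-beta T cells, 7 had reads in all 26 libraries. Cd3d, a chain of the T cell receptor complex, was at 6303 to 7113 CPM in CD44+, 1647 to 11265 in CD44-, 901 to 1159 in elemental and 751 to 1217 CPM in conventional libraries. Trac, the receptor's alpha constant region, has an exon length of 0 in the tables and is listed at 0 throughout. Some libraries stood apart in the values below: conventional replicates 1 and 6, elemental replicate 6, CD44+ replicate 8 and CD44- replicates 2 and 6. Counts are given with and without them. In bulk RNA, fewer cells of a type and less RNA per cell cannot be told apart.

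RefSeq promoters of GRCm38.p6, 250 bases before to 50 after the start, were matched for 66 of the 83 genes. The letters GCATGCGC, the core of the NRF1 motif, stood on either strand in 10 of these (15.2%), against 3.73% of 16359 promoters of protein-coding genes. CCGGAAG, bound by ETS factors, stood in 15 (22.7%, against 12.3%), and AAGATGG, bound by YY1, in 9 (13.6%, against 6.42%). At least 1 of the 3 stood in 29 promoters (43.9%, against 20.5%). The median base composition was 57% G and C in both sets, with a median of 19 CpG pairs in the members and 14 in all promoters. A match says only that these letters are present. Shown are the promoters of the single gene called between CD44+ and CD44- cells (Atp5g2) and of 3 called between diets, with matches in capitals, read 5′ to 3′ on the gene's strand. Of 8 called members with a matched promoter, 4 hold the NRF1 letters (Atp5g2, Cox6a1, Sdhb and Uqcrc1). The selection shown is thus richer in these letters than the called members are. For Atp5g2 and Sdhb only the 30 bases around the match are printed, since annotated exons cover 80 and 68 bases of their windows. They cover 23 bases of the Cox6a1 and 27 bases of the Cox7a1 window. Atp5g2 (chr15:102671070-102671099, minus strand) has the NRF1 letters on both strands, overlapping, from 42 and 40 bases before the start. Sdhb (chr4:140961206-140961235, plus strand) has them from 54 bases before the start. The starts are those of RefSeq, and the stretches of Atp5g2 and Sdhb lie inside the genes as bounded in the deposited data. That of Atp5g2 lies well downstream of the 5′ end given there. Cox6a1 (chr5:115348959-115349208, minus strand) has them on both strands from 162 and 160 bases before the start and the ETS letters from 16 bases before it. Cox7a1 (chr7:30183921-30184170, plus strand) holds none of the letters searched in the 250 bases shown.
Atp5g2: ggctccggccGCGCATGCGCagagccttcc
Sdhb: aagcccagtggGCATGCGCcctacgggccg
Cox6a1: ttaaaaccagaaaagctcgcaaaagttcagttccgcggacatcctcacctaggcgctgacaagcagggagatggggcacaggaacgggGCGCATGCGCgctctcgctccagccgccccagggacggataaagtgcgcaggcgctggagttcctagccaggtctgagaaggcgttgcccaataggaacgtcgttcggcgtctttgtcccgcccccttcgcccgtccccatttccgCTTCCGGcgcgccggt
Cox7a1: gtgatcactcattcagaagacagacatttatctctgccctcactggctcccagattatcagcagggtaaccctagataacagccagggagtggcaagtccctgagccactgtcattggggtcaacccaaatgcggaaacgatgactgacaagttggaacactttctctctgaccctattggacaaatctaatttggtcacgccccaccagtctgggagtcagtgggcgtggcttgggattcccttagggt

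In CD44+ libraries most respiratory chain genes had higher fitted levels than in CD44- libraries, with a positive median in each complex, but a single gene, Atp5g2 of ATP synthase, passed the test. Of 76 members tested, 69 had a positive log2 fold change, and their median was 0.60, against 0.03 over all 8343 genes tested. Atp5g2 was called higher and 0 members were called lower (edgeR quasi-likelihood test, Benjamini-Hochberg adjusted p under 0.05). Over all genes, 0.3% were called higher and 0.467% lower, so 1 member in 76 is close to what the whole table shows. Before adjustment, p was under 0.05 for 20 members with a positive and 0 with a negative value (26.3% of them, against 5.69% and 7.66% of all genes). DESeq2 and limma-voom also called 1 member each. In counts simulated from these libraries the edgeR test recovered 1% of 2-fold changes. A gene not called here is thus not shown to be unchanged. The median log2 fold change was 0.66 in complex I, 0.34 in complex II, 0.59 in complex III, 0.50 in complex IV and 0.44 in ATP synthase.

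Atp5g2 encodes subunit c, the membrane ring that turns as protons pass through ATP synthase. It lies on chromosome 15, from 102662864 to 102672352 on the minus strand of GRCm38, and 99.95% of its exon reads in the CD44 libraries mapped to 1 place. CD44+ libraries had 304 CPM at the lowest, 396 at the median and 671 at the highest, against 83.4, 151 and 241 CPM in CD44- libraries. The groups did not overlap, which was so for 1 of 76 members and for 0.396% of all genes in the higher direction and 0.36% in the lower. Atp5g2 was 2.40-fold higher (log2 fold change 1.26 ± 0.30 SE, adjusted p = 0.0495, edgeR). Its call was close to the threshold: without any single library the log2 fold change stayed between 1.11 and 1.36, while the adjusted p ran from 0.0411 to 0.115, and the gene kept its call in 2 of 14 such fits. Those were the fits without CD44- replicate 6 and without CD44- replicate 8. In every other fit that left out a library, 0 members were called.

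The other genes for subunit c, Atp5g1 and Atp5g3, encode the same mature protein with different import sequences and were looked up after the Atp5g2 values were seen. Atp5g1 had 846, 1151 and 1786 CPM in CD44+ libraries, against 355, 730 and 885 CPM in CD44- libraries (lowest, median, highest), so the groups overlapped narrowly. Its log2 fold change was 0.84 ± 0.25 (adjusted p = 0.118, edgeR). Atp5g3 had 144, 266 and 496 CPM in CD44+ libraries, against 65.1, 131 and 289 CPM in CD44- libraries, with a log2 fold change of 0.92 ± 0.35 (adjusted p = 0.251, edgeR). Atp5l, subunit g of the membrane part and the ATP synthase gene with the highest CPM in these libraries, had 1800, 2671 and 2857 CPM in CD44+ libraries, against 389, 1945 and 3160 CPM in CD44- libraries. The CD44+ range lay within the CD44- range, and the adjusted p was 0.607 (edgeR). Of its exon reads in the CD44 libraries 65.8% mapped to 1 place.

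**Figure D1:**
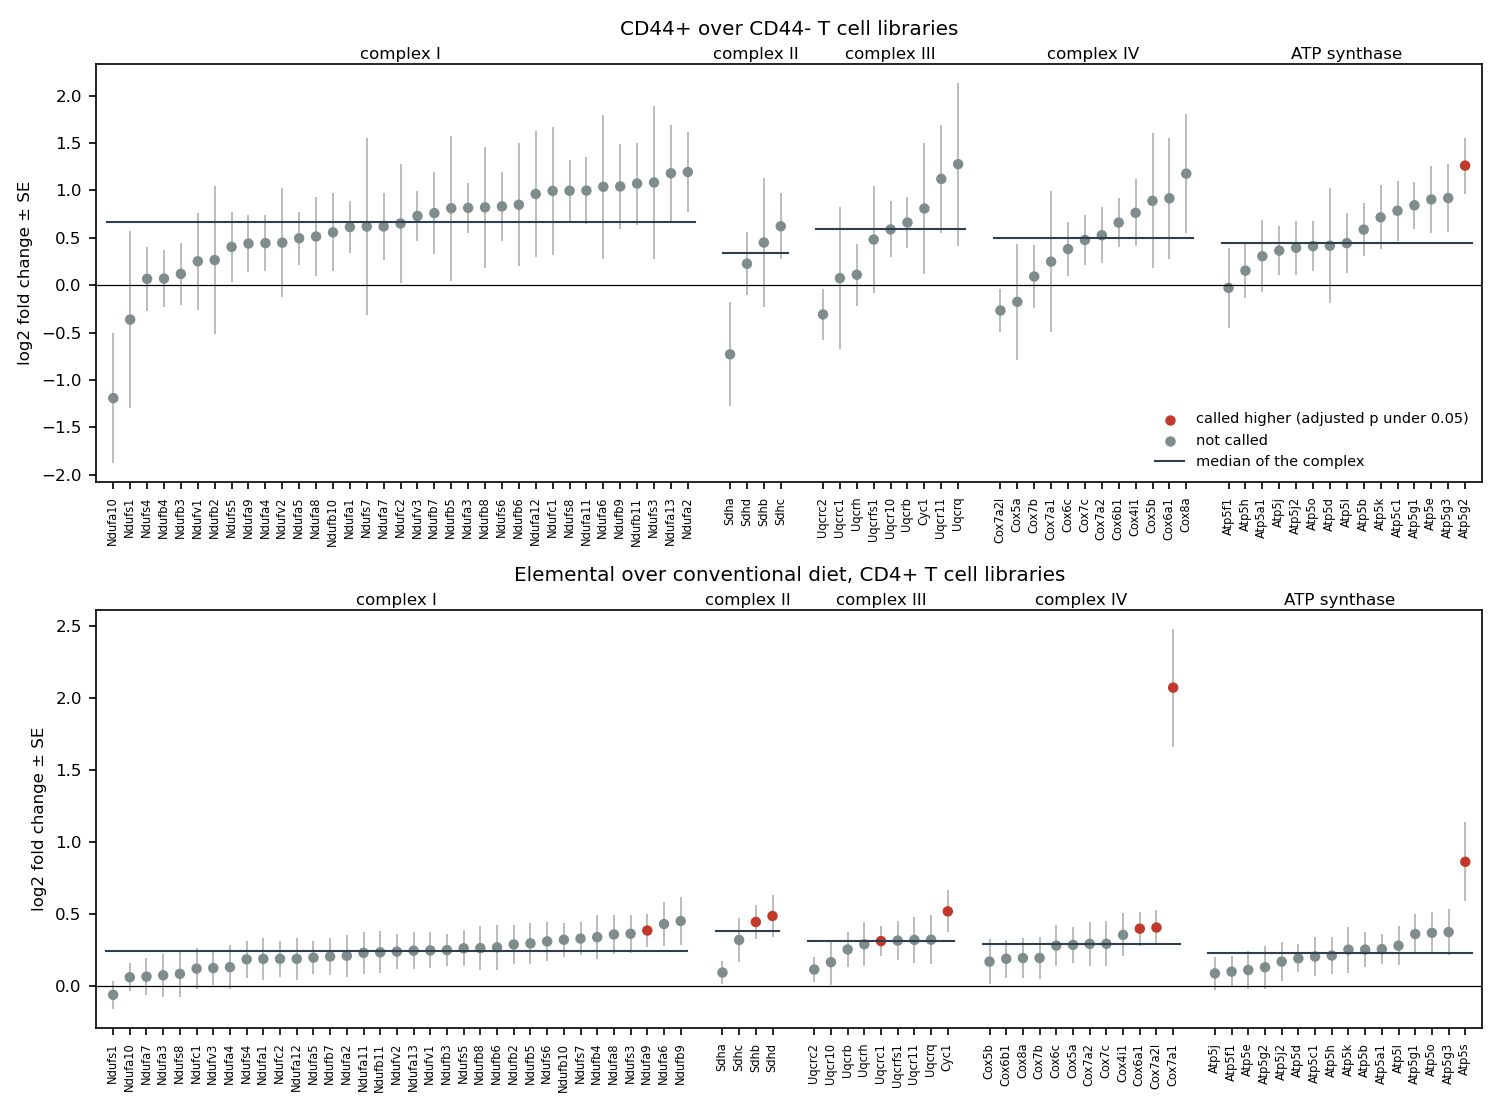
Log2 fold change ± SE of the tested genes except 1 of complex I, sorted within each complex, for CD44+ over CD44- libraries (top) and elemental over conventional libraries (bottom). Red points are called (adjusted p under 0.05), grey points are not, and horizontal lines are medians over all tested genes of a complex: 1 gene is called at the top and 9 at the bottom, all higher.

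No complex I gene was called between CD44+ and CD44- cells. Among its 36 tested genes 34 had a positive log2 fold change and 10 an unadjusted p under 0.05. The 7 core subunits, which carry the flavin and iron-sulphur clusters from NADH to ubiquinone, had a median of 0.62, and the 29 others 0.73. Ndufa4, a small subunit first assigned to complex I and since placed in complex IV, had the highest CPM of the complex, with 1017, 1429 and 1653 CPM in CD44+ libraries, against 263, 1154 and 1598 CPM in CD44- libraries. The groups overlapped over most of their range (log2 fold change 0.44 ± 0.29, adjusted p = 0.569, edgeR). Ndufa10, an accessory subunit picked out after its value was seen, had the lowest fold change of all members, -1.19 ± 0.69 (adjusted p = 0.487), from 1.19, 3.34 and 10.1 CPM in CD44+ libraries against 2.66, 10.1 and 24.1 CPM in CD44- libraries.

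Complexes II to IV held no call either. Sdhb, the iron-sulphur subunit of complex II, had 38.96, 233 and 1048 CPM in CD44+ libraries, against 25.9, 331 and 484 CPM in CD44- libraries. Its values spread widely in both groups, and its log2 fold change of 0.45 ± 0.68 (adjusted p = 0.840, edgeR) turned to -0.16 without CD44+ replicate 8. Uqcrh, the hinge protein beside cytochrome c1 in complex III, had 2426, 2472 and 3080 CPM in CD44+ libraries, against 569, 2127 and 5703 CPM in CD44- libraries. The CD44+ libraries were tightly grouped within the much wider CD44- range (0.11 ± 0.33, adjusted p = 0.920), and the sign turned without CD44- replicate 2 (-0.08). Cox7a2l had 888, 1124 and 1598 CPM in CD44+ libraries, against 949, 1618 and 1866 CPM in CD44- libraries (-0.27 ± 0.22, adjusted p = 0.675, edgeR). Its product is known for a part in joining complexes III and IV into supercomplexes, which was not examined in these mice.

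Taken as a share of exon reads, the 83 genes held 3.62%, 4.20% and 4.78% in CD44+ libraries (lowest, median, highest), against 2.09%, 2.94% and 3.32% in CD44- libraries, and these shares did not overlap. On the TMM scale their summed level was 30767, 42684 and 52564 CPM in CD44+ libraries, against 15600.3, 31245 and 36877 CPM in CD44- libraries, and the groups overlapped. Transcripts of the mitochondrial genome lay the other way. Of 13 mitochondrially encoded chain genes tested, 3 fell in CD44+ cells and 0 rose, with a median log2 fold change of -1.11. Mt-Atp8, a membrane subunit of ATP synthase, had 181, 409 and 534 CPM in CD44+ libraries, against 867, 2014 and 7691 CPM in CD44- libraries (-3.07 ± 0.47, adjusted p = 0.00342, edgeR). Mt-Cytb, cytochrome b of complex III, had 1472, 3040 and 4690 CPM in CD44+ libraries, against 4010, 11748 and 44822 CPM in CD44- libraries (-2.46 ± 0.43, adjusted p = 0.00912). The summed level of these 13 genes was 36962 to 82442 CPM in CD44+ libraries, against 24521 to 203425 CPM in CD44- libraries, and it enters the total by which the share of exon reads is taken.

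The other genes of the pathway held 0 calls between CD44+ and CD44- cells. This was so for 44 assembly factors, 4 carriers, 16 genes of the citric acid cycle, 9 regulators, 76 proteins of the mitochondrial ribosome and 13 glycolytic enzymes tested. An unadjusted p under 0.05 was reached by 10 assembly factors, 1 carrier, 4 citric acid cycle genes, 1 regulator, 4 ribosomal proteins and 2 glycolytic enzymes. Medians were 0.21 for assembly factors, 0.35 for the mitochondrial ribosome, -0.21 for the citric acid cycle and -0.20 for glycolysis. Among regulators, Tfam, which packages and transcribes mitochondrial DNA, had 9.36, 37.9 and 98.8 CPM in CD44+ libraries, against 1.45, 11.4 and 64.3 CPM in CD44- libraries (1.00 ± 0.78, adjusted p = 0.648, edgeR). Nrf1 (-0.25 ± 0.68) and Myc, an activator induced on T cell activation (-0.32 ± 0.79), had wide errors, and Ppargc1b was under the filter on low counts.

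Among markers of other cells, 2 plasma cell genes differed between the CD44 groups. The plasma cell genes Jchain and Mzb1 were called higher among 5 tested plasma cell markers, whose summed level was 3841 to 8087 CPM in CD44+ libraries, against 399 to 3136 CPM in CD44- libraries. Cell cycle genes summed to 237 to 421 CPM in CD44+ libraries, against 77.9 to 261 CPM in CD44- libraries, with a median log2 fold change of 1.39 over 10 genes and 0 called. B cell markers had a median of 1.07 (7 tested, 0 called) and germinal centre B markers 1.45 (5 tested, 0 called), and Pax5, Blk and Cr2 were at 0 in some libraries of both groups. Myeloid markers had a positive value in 8 of 9 genes tested (median 0.44, 0 called), with summed levels of 924 to 1366 CPM in CD44+ libraries, against 692 to 1339 CPM in CD44- libraries. Of 20 epithelial markers 4 were tested, with 0 positive values, a median of -0.55 and 0 called. Alpha-beta T cell markers had a median of -0.45 (7 tested, 0 called). The part of these cells in the members' levels was not tested.

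Within the CD44 groups many members spread more widely than the groups differed. The SD of log2 CPM over libraries had a median of 0.55 among members in CD44+ and 0.95 in CD44- libraries, against 1.36 and 1.41 over all genes tested. It differed by complex: in CD44- libraries the median SD was 1.21 for complex I, 1.104 for complex II, 1.011 for complex III, 0.80 for complex IV and 0.77 for ATP synthase. In CD4+ libraries the members' median SD was 0.22 on the elemental and 0.30 on the conventional diet. Of the 76 members, 19 had an SD over 1.5 in at least 1 CD44 group, and 4 stayed under 0.5 in both. Those 19 comprised 14 genes of complex I, 3 of complex III, 1 of complex II and 1 of complex IV, and 0 of ATP synthase.

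For these 19 genes, which were singled out by their spread in the same libraries, the levels are a description. In CD44+ replicates 2 and 8, 18 of the 19 lay above their own median over the 14 libraries, and in CD44- replicate 4 also 18. In CD44+ replicate 1 and CD44- replicates 5 and 6, 2 of 19 did, and in CD44- replicate 7, 3. The other libraries were mixed, with 16 in CD44+ replicate 4, 13 each in CD44- replicates 1 and 8, 10 in CD44+ replicate 7, 8 in CD44- replicate 2 and 5 each in CD44+ replicates 5 and 6. Ndufa12, an accessory subunit of complex I, had 71.4, 551, 567.5, 185, 163, 483 and 1109 CPM in CD44+ replicates 1, 2, 4, 5, 6, 7 and 8, against 308, 197, 571, 64.6, 9.11, 68.7 and 387 CPM in CD44- replicates 1, 2, 4, 5, 6, 7 and 8. Uqcr11, a small complex III subunit, had 104, 527, 553, 326, 259, 610 and 800 CPM in the CD44+ libraries in the same order, against 271, 104, 347, 113, 6.58, 216 and 403 CPM in the CD44- libraries. In the CD44 libraries 46.5% of the exon reads of Ndufa12 mapped to 1 place, and 97.9% of those of Uqcr11. Both genes were lowest in CD44- replicate 6 and highest in CD44+ replicate 8, a ratio of 122 for each. Across the 19 genes the ratio of the highest to the lowest library ran from 14.6 to 143, CD44- replicate 6 was the lowest library for 12 and CD44+ replicate 8 the highest for 14.

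The other 57 members went both ways in CD44- replicate 6, where 29 lay above their own median, but mostly up in CD44+ replicate 8. CD44- replicate 6 was the lowest library for 28 of all 76 members, more than the 12 above, and the highest for 11. CD44+ replicate 8 was the highest for 28 (36.8%, against 11.3%), and 51 of the other 57 lay above their own median in it. In CD44- replicate 6 the median of log2(CPM + 1) minus the gene's own median was -3.37 over the 19 genes and 0.02 over the other 57. It was -1.77 and -0.03 in CD44+ replicate 1, and -1.46 and -0.22 in CD44- replicate 5. CD44- replicate 2 had the reverse pattern, -0.22 for the 19 genes and -1.36 for the others. That library had the lowest intron share of the CD44 libraries, 9.39%, and CD44- replicate 6 had 21.0%, the CD44- median. CD44+ replicate 1 had the highest intron share, 29.0%, and CD44+ replicate 8 had 20.6%, the lowest of its group. The part of library preparation in this pattern was not tested. Ndufb4, an accessory subunit near the membrane arm, and Cox6b1, a complex IV subunit facing the intermembrane space, chosen after their values were seen, were lowest in another library. Cox6b1 had 1052, 1282 and 1324 CPM in CD44+ libraries, against 282, 733 and 1305 CPM in CD44- libraries, and Ndufb4 had 567, 704 and 899 CPM in CD44+ libraries, against 179, 798 and 1121 CPM in CD44- libraries. For both, the lowest library was CD44- replicate 2 and the highest CD44- library replicate 6. Ndufb4 shares most of its reads with near copies elsewhere in the genome, and 13.3% of its exon reads in the CD44 libraries mapped to 1 place.

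**Figure D2:**
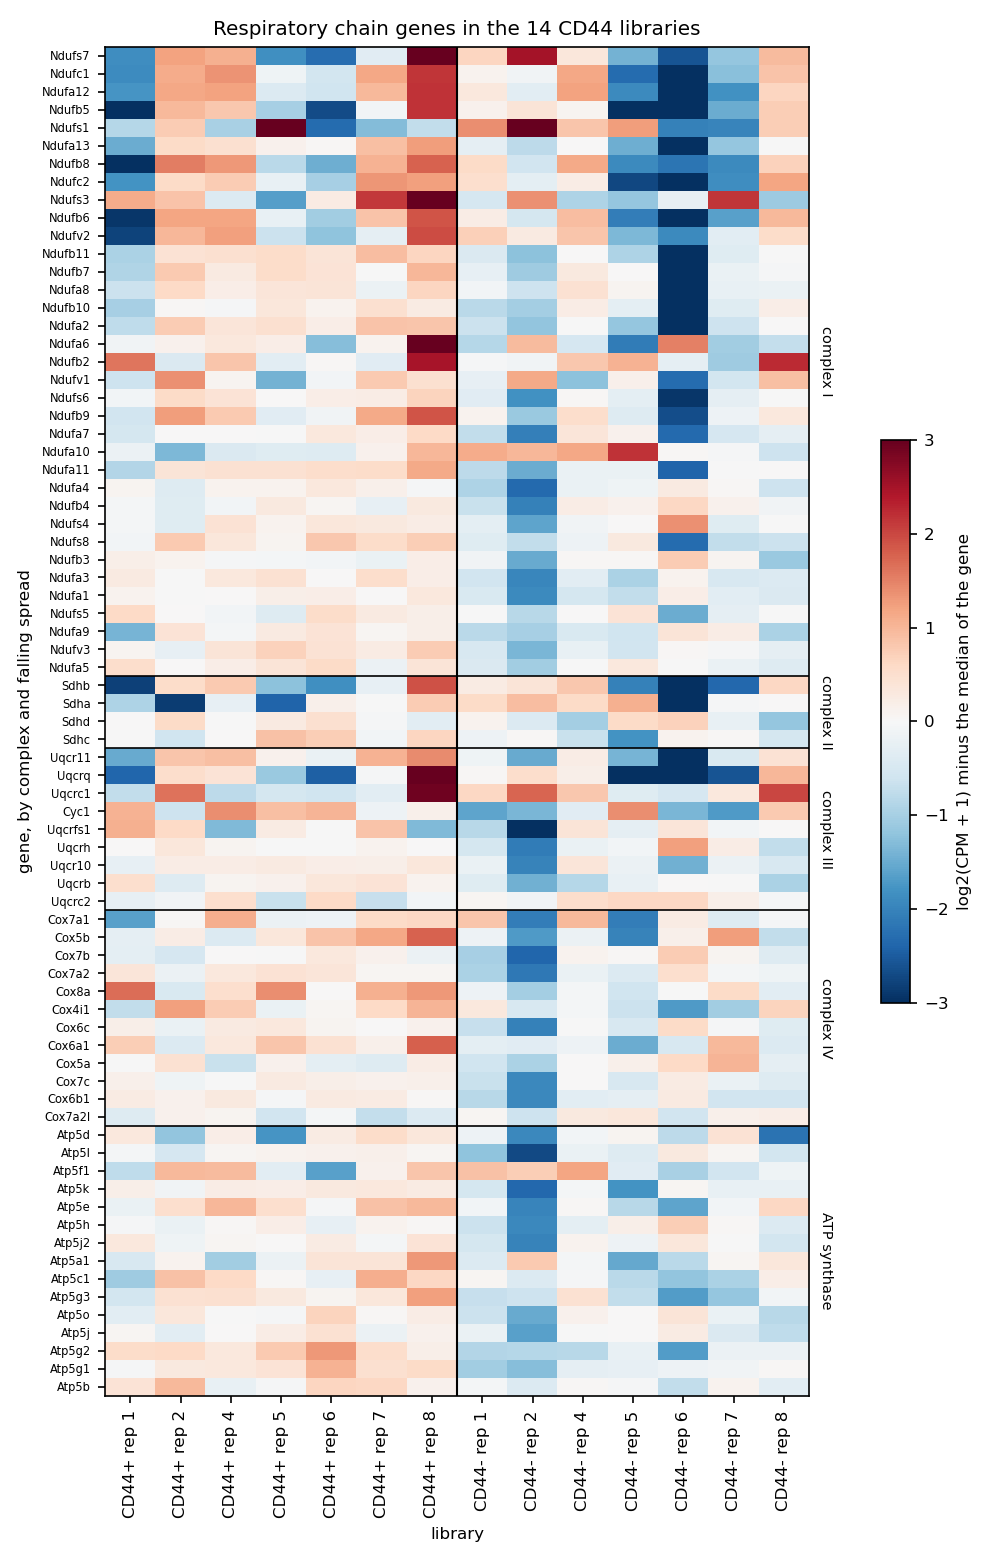
Colour gives log2(CPM + 1) minus the gene's median over the 14 CD44 libraries, for the tested genes except 1 of complex I (rows, by complex and falling spread) in 7 CD44+ (left) and 7 CD44- libraries (right). Many of the genes with the widest spread are low in CD44+ replicate 1 and CD44- replicates 5, 6 and 7 and high in CD44+ replicate 8, while CD44- replicate 2 is low in most genes of complex IV and ATP synthase.

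Without CD44- replicates 2 and 6, 0 members were called, with Atp5g2 at a log2 fold change of 1.09 ± 0.27 (adjusted p = 0.0748, edgeR). Without CD44+ replicate 8 as well, also 0 were called, with Atp5g2 at 1.15 ± 0.27 (adjusted p = 0.0808). The loss of the call was not particular to these libraries, since it also followed from leaving out most single libraries. These exclusions were chosen after the data were seen. With all 4 groups in 1 fit, which shares the small spread of the CD4+ libraries with the CD44 libraries, 17 members were called higher and 1 lower. The share of all genes called in that fit is not given here, so the count is no result about the members alone.

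In CD4+ T cells of mice fed the elemental diet, nearly all respiratory chain genes had slightly higher fitted levels, and 9 of them rose. Of 77 members tested, 76 had a positive log2 fold change, with a median of 0.26, against -0.01 over all 11938 genes tested. The 9 that rose were Cox7a1, Sdhb, Cyc1, Ndufa9, Sdhd, Cox6a1, Cox7a2l, Atp5s and Uqcrc1, and 0 fell. Over all genes 9.68% rose and 7.75% fell, so 9 of 77, or 11.7%, is near the background for increases. Before adjustment, p was under 0.05 for 27 members with a positive and 0 with a negative value (35.1% of them, against 17.1% and 16.7% of all genes). Of the 9, 2 belong to complex II, 2 to complex III, 3 to complex IV, and 1 each to complex I and ATP synthase. The libraries of 0 members were separated without overlap, against 4.82% of all genes in the higher direction and 2.35% in the lower.

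Cox7a1 had the largest change. It encodes the isoform of complex IV subunit VIIa known from heart and skeletal muscle, and lies on chromosome 7, from 30184144 to 30186078 on the plus strand. Elemental libraries had 11.3, 23.8 and 28.8 CPM (lowest, median, highest), against 1.90, 3.71 and 12.1 CPM in conventional libraries. Conventional replicate 6 at 12.1 CPM was the only conventional library to reach the elemental range. The log2 fold change was 2.07 ± 0.41 (adjusted p = 0.00501, edgeR), higher than the conventional mean in 6 of 6 elemental libraries, and the call held in 12 of 12 fits that left out a library. Over all 25 alternatives it held in 23, and was lost with the epithelial marker level as a covariate and with all 4 groups in 1 fit. Among conventional libraries Cox7a1 was lowest in replicate 1 and highest in replicate 6, as was the summed level of the epithelial markers described below. In the CD44 libraries, of the conventional diet, Cox7a1 had 1.89, 8.11 and 18.1 CPM in CD44+ cells, against 1.102, 7.73 and 16.4 CPM in CD44- cells. Its widely expressed counterpart Cox7a2, looked up after these values were seen, had a log2 fold change of 0.29 ± 0.15 between diets (adjusted p = 0.180).

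Of the other isoforms known from particular tissues, none passed the filter on low counts in either comparison. Cox7b2 and Cox8c, both known from testis, had 0 reads in all 26 libraries. Cox8b, the muscle form of subunit VIII, had 1 read in 1 elemental library and 0 in all others. Cox4i2, an isoform of lung and of low oxygen, reached 0.41 CPM at most in elemental and 0.12 CPM in conventional libraries. Ndufa4l2, known as a low-oxygen target, was at 0 in all elemental libraries and reached 0.68 CPM in conventional ones. Cox6b2, known from testis, reached 1.66 CPM in elemental, 0.50 in conventional, 1.19 in CD44+ and 12.8 CPM in CD44- libraries, the last in CD44- replicate 8.

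Complex II had the largest share of calls, 2 of its 4 genes, against 9.68% of all genes called higher. With so few genes this share is no result about the complex. Sdhb had 116, 138 and 160 CPM in elemental libraries, against 77.0, 100.3 and 134 CPM in conventional libraries. All conventional libraries except replicate 6 lay below the lowest elemental one (log2 fold change 0.45 ± 0.12, adjusted p = 0.0200, edgeR). Its call held in 11 of 12 fits that left out a library. Sdhd, a membrane anchor of the complex, had 138, 182 and 220 CPM in elemental libraries, against 96.0, 122 and 180 CPM in conventional libraries (0.49 ± 0.14, adjusted p = 0.0307, edgeR), and again only conventional replicate 6 overlapped. The Sdhd call held in only 3 of 12 fits that left out a library. Sdha, the flavoprotein that oxidises succinate, did not follow: it had 210, 256 and 271 CPM in elemental libraries, against 222, 229 and 248 CPM in conventional libraries (0.10 ± 0.08, adjusted p = 0.402, edgeR).

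In complex III, Cyc1, cytochrome c1, had 146, 195 and 221 CPM in elemental libraries, against 94.5, 125 and 186 CPM in conventional libraries (0.52 ± 0.14, adjusted p = 0.0239, edgeR). Uqcrc1, a core subunit of the matrix side, had 249, 278 and 326 CPM in elemental libraries, against 192, 218 and 300 CPM in conventional libraries (0.31 ± 0.10, adjusted p = 0.0451). For both genes conventional replicate 6 was the only conventional library within the elemental range. Uqcrh, the gene of the complex with the highest CPM, had 468, 564 and 743 CPM in elemental libraries, against 345, 448 and 688 CPM in conventional libraries (0.29 ± 0.15, adjusted p = 0.190).

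In complex IV, Cox6a1, the widely expressed form of subunit VIa, had 282, 342 and 408 CPM in elemental libraries, against 202, 245 and 327 CPM in conventional libraries (0.40 ± 0.12, adjusted p = 0.0309, edgeR). Cox7a2l, the complex IV gene with the highest CPM here, had 969, 1154 and 1372 CPM in elemental libraries, against 691, 831 and 1172 CPM in conventional libraries (0.41 ± 0.12, adjusted p = 0.0334). The groups overlapped through conventional replicate 6 in both genes. In complex I, Ndufa9, an accessory subunit of the matrix arm, had 137, 163 and 185 CPM in elemental libraries, against 103, 117 and 166 CPM in conventional libraries (0.39 ± 0.11, adjusted p = 0.0291, edgeR). It was the only call among 36 complex I genes tested. Ndufs1, the largest core subunit, was the single member with a negative value and is named for that reason, at -0.06 ± 0.10 (adjusted p = 0.704).

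Of the ATP synthase genes, Atp5s, known as coupling factor B, rose with low counts. It had 3.11, 4.78 and 5.11 CPM in elemental libraries, from 58 to 102 reads, against 1.18, 2.35 and 3.81 CPM in conventional libraries, from 28 to 89 reads (0.86 ± 0.27, adjusted p = 0.0410, edgeR). Atp5b, the catalytic beta subunit and the member with the highest CPM, had 1236, 1426 and 1708 CPM in elemental libraries, against 968, 1183 and 1647 CPM in conventional libraries (0.26 ± 0.12, adjusted p = 0.152). Atp5g2, the gene called between CD44+ and CD44- cells, had 533, 554 and 797 CPM in elemental libraries, against 407, 533 and 797 CPM in conventional libraries, so the groups covered nearly the same range (0.13 ± 0.15, adjusted p = 0.548).

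**Figure D3:**
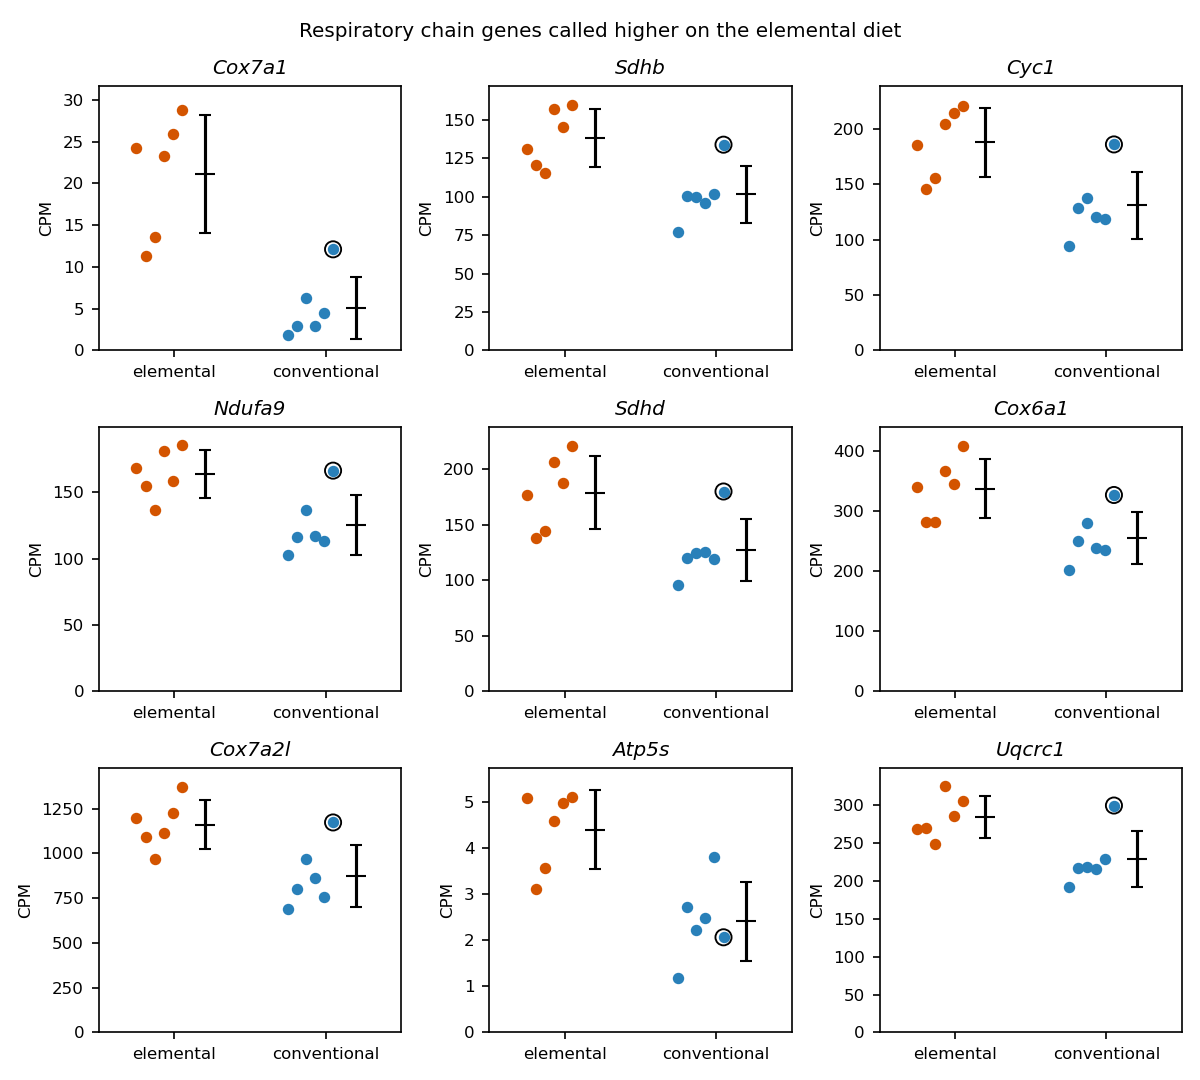
CPM in each of 6 elemental (left) and 6 conventional libraries (right) for the 9 genes that rose under the elemental diet, with mean ± SD beside the points. The circled point is conventional replicate 6, which lies within the elemental range for all but Atp5s.

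The same few libraries were the lowest and the highest for most members. Conventional replicate 1 was the lowest of the 12 libraries for 71 of 77 members, against 19.2% of all genes tested. Elemental replicate 6 was the highest for 54 (70.1%, against 10.7% of all genes) and conventional replicate 6 for 14 (18.2%, against 11.7%). Sdha was among the exceptions, lowest in elemental replicate 1 and highest in elemental replicate 3. The summed level of the 83 genes was 16666, 19959 and 23832 CPM in elemental libraries, against 12738, 15621 and 22417 CPM in conventional libraries, and the highest conventional value was replicate 6. The count of calls changed with nearly every library left out. It is given here without the share of all genes called in the same fit, so it does not set the members apart. It was 54 without conventional replicate 6, and 49 without that library and elemental replicate 1 together. Leaving out 1 other library at a time lowered it, to 3 (each of conventional replicates 1, 2 and 5 and elemental replicates 1 and 5), to 2 (conventional replicate 4, elemental replicate 6), to 1 (elemental replicate 4) or to 6 (conventional replicate 3), or raised it, to 11 (elemental replicate 2) or 13 (elemental replicate 3). Over these 12 fits Cyc1 kept its call in 7, Ndufa9 in 5, Cox6a1, Cox7a2l and Atp5s in 4 each, Sdhd in 3 and Uqcrc1 in 2, all with a positive log2 fold change. Scaling by the exon read total alone moved the median of all genes to -0.13 and that of the members to 0.16, a difference close to the one under TMM scaling, with 8 members called.

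Markers of other cells moved with diet. Of 20 epithelial markers 9 rose and 0 fell on the elemental diet (median log2 fold change 1.72), and their summed level was 1250 to 2677 CPM in elemental libraries, against 98.1 to 1462 CPM in conventional libraries. All 20 had reads in all elemental libraries, and Muc3 was at 0 in 1 conventional library. Within the conventional group, replicate 1 had the lowest epithelial level and the lowest members' level, and replicate 6 the highest of both. With the epithelial marker level as a covariate, 0 members were called, 6 had an unadjusted p under 0.05, and the members' median was -0.14, against 0.00 over all genes, where 262 genes were called. Only conventional replicate 6 had an epithelial level within the elemental range, so that the covariate and the diet largely overlap and their parts in the members' levels cannot be told apart in this fit. Myeloid markers rose in 10 of 11 genes tested, with summed levels of 830 to 1518 CPM in elemental libraries, against 425 to 576 CPM in conventional libraries. Germinal centre B markers fell in 6 of 6 and cell cycle genes in 9 of 9. B cell markers fell in 3 of 8, plasma cell markers in 3 of 6 and alpha-beta T cell markers in 1 of 7. The part of the myeloid, B cell and cell cycle genes in the members' levels was not tested.

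**Figure D4:**
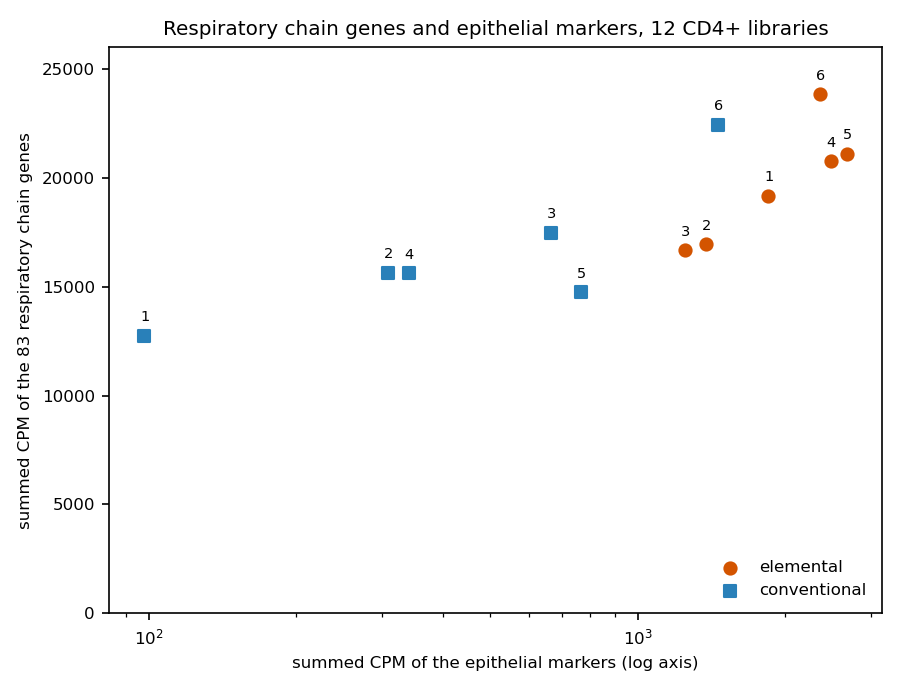
Summed CPM of the 83 respiratory chain genes (vertical axis) against the summed CPM of the 20 epithelial markers (horizontal log axis), 1 point per library with its replicate number, for 6 elemental and 6 conventional libraries. Conventional replicate 1 is lowest on both axes at 98.1 and 12738 CPM, and conventional replicate 6 lies among the elemental libraries at 1462 and 22417 CPM.

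The other genes of the pathway had few calls between diets. Uqcc3, an assembly factor of complex III, rose to 87.8, 108 and 132 CPM in elemental libraries, against 65.6, 78.0 and 100.02 CPM in conventional libraries (0.42 ± 0.12, adjusted p = 0.0225, edgeR), the only call among 48 assembly factors. Among 13 regulators 2 rose and 0 fell. Esrra, a nuclear receptor that drives these genes together with PGC-1 coactivators, had 42.2, 50.6 and 64.0 CPM in elemental libraries, against 23.9, 32.4 and 43.5 CPM in conventional libraries (0.69 ± 0.14, adjusted p = 0.00454). Ppargc1a, which encodes PGC-1 alpha, was scarce, at 0.43, 1.72 and 2.95 CPM in elemental libraries, against 0, 0.26 and 0.80 CPM in conventional libraries (2.48 ± 0.67, adjusted p = 0.0207). Nrf1 was at 14.1, 18.5 and 22.2 CPM in elemental libraries, against 20.7, 22.3 and 27.9 CPM in conventional libraries (-0.32 ± 0.13, adjusted p = 0.0967). Tfam (0.02 ± 0.07), Myc (-0.11 ± 0.20) and Ppargc1b (0.43 ± 0.36) were not called.

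Of 16 citric acid cycle genes 1 rose, Suclg1, a subunit of succinyl-CoA ligase (0.33 ± 0.11, adjusted p = 0.0439, edgeR), and of 78 mitochondrial ribosome genes 1 rose, Mrpl2 (0.45 ± 0.14, adjusted p = 0.0382). No carrier was called among 4, 1 of them at an unadjusted p under 0.05. No glycolytic enzyme was called among 14, with an unadjusted p under 0.05 for 1 positive and 4 negative values and a median of -0.12. Of 13 mitochondrially encoded genes mt-Nd4l fell (-0.51 ± 0.17, adjusted p = 0.0461) and the median was -0.11.

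Members lay at very unequal levels in the CD44 and CD4+ libraries. These are given side by side and not compared by a test, since population, RNA input and kit cannot be told apart. On the scale of CPM of the exon read total, the 14 CD44 libraries lay wholly above the 12 CD4+ libraries for 20 of 76 members with a CD4+ mean over 10 CPM, wholly below for 13, and overlapped for 43. These were 26.3% of members above and 17.1% below, against 4.73% above and 17.7% below over 7102 genes. Subunits of 1 complex lay on opposite sides. In complex IV, Cox8a had 5.67 to 44.0 CPM in CD44 libraries, against 303 to 432 CPM in CD4+ libraries, and Cox6a1 had 3.15 to 42.3 CPM in CD44 libraries, against 234 to 363 CPM in CD4+ libraries. Cox7b had 275 to 1537 CPM in CD44 libraries, against 139 to 209 CPM in CD4+ libraries. In complex I, Ndufb2 had 0.62 to 16.6 CPM in CD44 libraries, against 48.2 to 72.2 CPM in CD4+ libraries, while Ndufb4 had 241 to 947 CPM in CD44 libraries, against 60.8 to 105 CPM in CD4+ libraries. Members below had a median transcript length of 1520 bases and members above one of 711 bases, with 53.7% and 50.1% G and C. The same held over all genes, with 2430 bases and 55.2% G and C below, and 1362 bases and 46.8% above. The genes named here were picked for their extreme values.

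**Figure D5:**
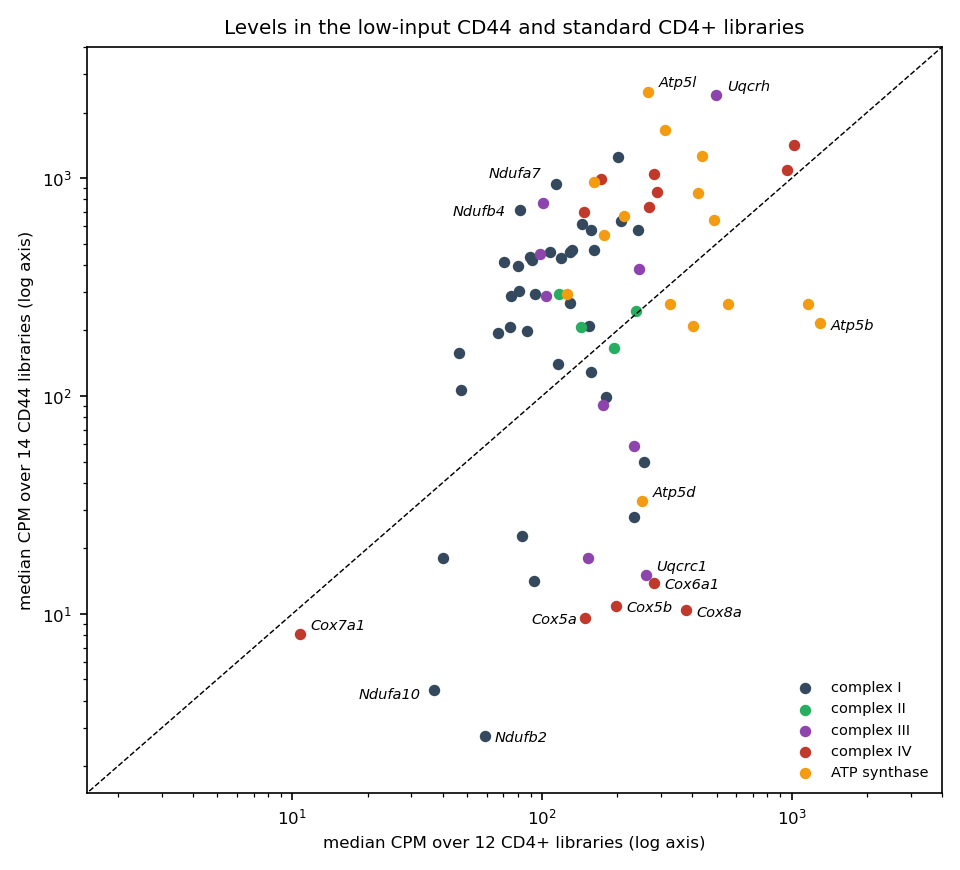
Median CPM of the exon read total over 14 CD44 libraries (vertical log axis) against that over 12 CD4+ libraries (horizontal log axis), 1 point per gene coloured by complex, with the dashed line marking equal levels. Cox8a, Cox6a1, Cox5b and Cox5a of complex IV lie far below the line, and Atp5l, Ndufb4 and Ndufa7 far above it.

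Levels between genes can be set side by side only per length of exon. Per kilobase, the highest mean levels in elemental libraries were those of Atp5e, the epsilon subunit of ATP synthase, at 1245 CPM per kb, Cox4i1, the widely expressed form of subunit IV of complex IV, at 1211, and Uqcrh at 1056. In conventional libraries the same 3 genes led, at 1151, 946 and 863 CPM per kb. In CD44+ libraries Uqcrh and Atp5l led at 4726 and 4721 CPM per kb, and in CD44- libraries at 4377 and 3471. Between members, 17 had under 90% of their exon reads at 1 place in the genome, so that reads from processed copies may be counted with them. The lowest such share was 6.04% for Cox7c in the CD4+ libraries, and Ndufb4, Ndufs5, Uqcrb, Ndufa13, Cox5b, Cox4i1, Ndufb2 and Ndufa12 were all under 50% there. With uniquely mapped exon reads alone, 1 member was called between CD44+ and CD44- cells and 9 between diets.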

How the data were processed

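The authors deposited a table for each library with whole counts per gene of total and unique exon reads, intron reads and all gene reads, per the file headers. The submitters' processing notes name GRCm38 as the build; which aligner and counter made the tables is not given in the sources used here. Tests of total exon reads ran within each pair of groups with edgeR 4.0.16 in R 4.3.3 (filterByExpr by group, TMM scaling, robust quasi-likelihood test, two-sided), fitted on all genes, with Benjamini-Hochberg adjustment over all genes tested. The SE was taken from F, as |log2 fold change| over its root. Log2 CPM used a prior count of 2. Genes with an exon length of 0 in the tables (3759) hold no exon reads. Alternatives used DESeq2 1.42.0 and limma 3.58.1, other scalings, read types and filters, covariates, and leaving out libraries. Members and gene lists were chosen with earlier results of these data known. Named were, per complex and comparison, the called members with the largest change, the member with the highest mean CPM and the isoforms of other tissues, and 4 regulators, with other names marked as chosen after their values were seen. A gene that this rule names is not reported here. Promoters are RefSeq's. No pair of libraries agreed within counting noise (lowest chi-square per degree of freedom 11.9). The scripts were tested on counts simulated from each pair of groups. Of genes changed 2-, 4- and 8-fold, the CD44 comparison recovered 1%, 12% and 48%. The diet comparison recovered 59%, 82% and 96%.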

Additional observations from a re-analysis of the deposited data

Results flagged for a closer look

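Of 40 groups of libraries examined for the members named by rule, 5 held a library whose gap to the nearest other library was large for the range of its group (Dixon's criterion at 95%). Chance gives about 1 such group in 20. CD44+ replicate 2 had the highest Uqcrh level of its group, 3080 CPM, with the other CD44+ libraries between 2426 and 2636 CPM. The same library had the lowest Atp5l level, 1800 CPM, with the others between 2459 and 2857 CPM. Conventional replicate 6 stood above the other conventional libraries for Sdhd at 179.8 CPM (others 96.0 to 126), for Uqcrc1 at 299.7 CPM (others 192 to 229) and for Atp5b at 1647 CPM (others 968 to 1213).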

How the results depend on the processing

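The count of members called depended on the processing more than the median fold change did. It is given here without the share of all genes called in the same fit. Between CD44+ and CD44- libraries it was 1, and it was 0 with DESeq2 size factors in the edgeR test, without a filter on low counts, with a minimum fold of 1.2, with the intron share as a covariate, without CD44- replicates 2 and 6, and without these and CD44+ replicate 8. It was 2 with the exon read total alone and 18 with all 4 groups in 1 fit. Leaving out 1 library at a time gave 0 to 1. Atp5g2 kept a positive fold change in all 28 alternatives, with adjusted p from 0.000469 to 0.159, and its call in 9. Uqcrh turned to -0.041 with the intron share as a covariate and ranged from -0.076 to 0.49 when single libraries were left out. Sdhb ranged from -0.16 to 0.70 in the same way. Without CD44- replicates 2 and 6 and CD44+ replicate 8, Sdhb was at -0.28 and Cox7a1 at -0.014. Between diets the count was 9, and it was 0 with all 4 groups in 1 fit, 0 with the epithelial level as a covariate, 1 with a minimum fold of 1.2, 49 without conventional replicate 6 and elemental replicate 1, and from 1 to 54 without 1 library at a time. With the epithelial covariate Uqcrh turned to -0.17 and Atp5b to -0.11, and Sdha to -0.013 with the exon read total alone. Replicate numbers were not treated as a pairing in the main fit. Both CD44 groups carry the same numbers with the same gap, and the labels do not say what a shared number means. Deviations of same-numbered libraries correlated at -0.04 to 0.12 in 7 CD44 pairs (other pairs -0.12 to 0.13). In 6 diet pairs they correlated at -0.14 to 0.27 (other pairs -0.33 to 0.33). In each comparison 1 library correlated best with its own number. Correlations this weak, in libraries that spread so widely, show no pairing but cannot exclude one. With a replicate block the calls were 0 between CD44+ and CD44- libraries and 17 between diets. The cause of the differences between these alternatives was not tested. With 7180390 exon reads in the smallest library, genes of a few CPM rest on few reads.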
